A study of Mus musculus with 12 samples.

Results

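Messenger RNA levels of 8 genes of the phosphoinositide 3-kinase (PI3K) pathway were followed in 12 mouse samples, among 55862 genes in the deposited table. The genes were chosen by name, to set ubiquitous or neural PI3K isoforms beside isoforms typical of leukocytes. The former were the catalytic subunit genes Pik3ca and Pik3cb and the regulatory subunit gene Pik3r3, 3 genes in all. The 5 leukocyte-type genes were the catalytic subunit genes Pik3cd and Pik3cg, the regulatory subunit gene Pik3r5, the adaptor gene Pik3ap1 and the lipid phosphatase gene Inpp5d. The study asked how far astrocytes grown as spheres came to resemble neural progenitors, and each of 4 groups had 3 samples. AST samples were astrocytes of newborn C57BL/6 cortex in adherent culture with serum, at day 0 of the sphere protocol, and A-iSC samples were such cells after 5 days of sphere growth on agarose. P56-NPC samples were cells dissociated from the adult subependymal zone of C57BL/6J mice at postnatal day 56, and P0-NPC samples were cells dissociated from the hippocampus of C57BL/6J mice at postnatal day 0. The labels name no transgene or agent for these groups. No source describes a sort by cell marker, so each sample can hold several cell types. No label says that samples of a group came from separate cultures or animals, so p-values measure only the spread between these samples.

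Class I PI3Ks are lipid kinases at the plasma membrane. A catalytic subunit is held by a regulatory subunit until a receptor recruits the pair, and the lipid it makes then draws Akt and other kinases to the membrane. The alpha and beta catalytic subunits, products of Pik3ca and Pik3cb, are made in most tissues, whereas the delta and gamma subunits, products of Pik3cd and Pik3cg, are best known from leukocytes, including microglia, the resident macrophages of the brain. Lipid phosphatases such as SHIP, the product of Inpp5d, remove the signal.

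To show where the leukocyte-type genes start, RefSeq sequence at their annotated starts was searched for the PU box, GAGGAA on either strand, which is bound by the leukocyte transcription factor PU.1, the product of Spi1. All 8 genes matched a RefSeq promoter window of 300 bases on GRCm38.p6, from 250 bases before to 50 after an annotated start, with 13 windows in all. The motif was chosen with these sequences in view. The PU box lay in windows of Inpp5d, Pik3cg, Pik3ap1 and Pik3r3, and in none of those of Pik3ca, Pik3cb, Pik3cd and Pik3r5. It lay in 28.28% of all 32851 such windows, so holding it is common. The longer GAGGAAGT, whose matches are among those of the PU box, lay in 3.2% of all windows and in those of Inpp5d and Pik3cg. These matches are letters in a window and were not tested as binding sites. Below, capitals mark the PU box on either strand, and the sequences are shown because they pair 3 leukocyte-type genes that hold it with Pik3r5, which rose beside them in A-iSCs but does not. Presence did not follow the direction of change in every gene: Pik3cd rose and had no match in its 3 windows, the nearest of which starts 3863 bases from the deposited gene start, and Pik3r3 fell and had one. The stretches are the 250 bases before the start of Inpp5d (chr1:87620062-87620311, plus strand), Pik3ap1 (chr19:41385103-41385352, minus strand) and Pik3r5 (chr11:68431875-68432124, plus strand), and 30 bases across the start of Pik3cg (chr12:32208645-32208674, minus strand), each read 5′ to 3′.
Inpp5d: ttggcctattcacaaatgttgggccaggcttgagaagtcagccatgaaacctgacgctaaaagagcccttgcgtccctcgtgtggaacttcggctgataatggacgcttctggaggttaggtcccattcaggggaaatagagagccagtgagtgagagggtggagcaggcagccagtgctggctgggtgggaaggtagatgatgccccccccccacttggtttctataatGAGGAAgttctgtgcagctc
Pik3ap1: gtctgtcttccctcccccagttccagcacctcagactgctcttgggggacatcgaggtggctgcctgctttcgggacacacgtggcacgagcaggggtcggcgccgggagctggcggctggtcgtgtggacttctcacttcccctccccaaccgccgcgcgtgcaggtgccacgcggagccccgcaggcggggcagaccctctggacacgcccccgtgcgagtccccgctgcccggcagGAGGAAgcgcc
Pik3cg: tggtaactgcaacacTTCCTCtgcatctgg
Pik3r5: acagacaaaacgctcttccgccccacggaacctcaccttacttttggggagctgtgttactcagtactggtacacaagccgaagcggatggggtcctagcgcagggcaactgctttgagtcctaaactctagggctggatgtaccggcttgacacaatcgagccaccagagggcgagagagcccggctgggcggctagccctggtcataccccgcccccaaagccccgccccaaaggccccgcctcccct

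Expression was read as FPKM, fragments corrected for gene length and for library size, so levels can be compared between genes. Recovered fragments ranged from 17077780 to 24452419 per sample, and the limit that a count of 0 allows, taken as 3 fragments, was 0.103 to 0.187 FPKM at a gene length of 1 kilobase and covers counting error only. The samples that stood farthest from their own group over all genes were AST replicate 2 and A-iSC replicate 3, and mitochondrial genes took 16.54% to 17.63% of fragments in P56-NPCs against 2.94% to 7.03% elsewhere. Changes below are log2 fold changes on the log2(FPKM + 1) scale, which understates the change of low genes. They were tested with limma over genes with a mean of at least 1 FPKM in either group, and those with a p under 0.05 after Benjamini-Hochberg adjustment over all genes tested were called. All 8 astrocyte markers averaged at least 1 FPKM in every group, and their sum was 143 to 161 FPKM in AST samples, below the 238 to 303 of P0-NPCs, the 1211 to 2466 of A-iSCs and the 2834 to 3072 of P56-NPCs. AST samples also held 368 to 545 FPKM of 6 fibroblast and meningeal markers. A-iSCs held 66.8 to 86.4 FPKM of them, P56-NPCs 11.05 to 14.6 and P0-NPCs 105 to 117. Most of the AST sum came from Fn1 and Col1a1 (means of 299.4 and 157.7 FPKM). Dcn and Lum averaged only 0.248 and 0.037 FPKM in ASTs, against 11.96 and 7.42 FPKM in P0-NPCs. Of the 6 markers, 3 were called higher and 2 lower in P0-NPCs than in ASTs. Dcn and Lum passed the filter there only through P0-NPCs and so had to be higher. P56-NPCs held 8291 to 9403 FPKM of 8 oligodendrocyte lineage markers, against 49.6 to 141 in the other groups. Ependymal markers summed to 232 to 301 FPKM in P56-NPCs against 42.04 to 84.4 elsewhere, and endothelial markers to 73.8 to 76.5 FPKM in P0-NPCs against 2.57 to 6.05 elsewhere. In bulk samples such as these, fewer cells of a type and less RNA per cell cannot be told apart.

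Of the catalytic subunits of most cells, Pik3cb fell sharply in A-iSCs and lay lower still in both NPC groups, while Pik3ca differed by less. Pik3cb (ENSMUSG00000032462, chr9:99036654-99140621, minus strand) stood at 18.6, 14.98 and 19.8 FPKM in the 3 ASTs. It was at 4.68, 4.30 and 5.33 FPKM in A-iSCs, at 2.02, 2.10 and 2.58 FPKM in P56-NPCs and at 1.82, 1.87 and 2.48 FPKM in P0-NPCs. Every AST lay above every A-iSC, and every A-iSC above every NPC sample, whereas the ranges of the NPC groups overlapped. The log2 fold change against ASTs was −1.70 (SE 0.14, adjusted p = 5.97e-05) in A-iSCs, −2.54 (SE 0.12, adjusted p = 1.4e-06) in P56-NPCs and −2.62 (SE 0.13, adjusted p = 7.9e-07) in P0-NPCs. Between P56-NPCs and P0-NPCs it was 0.08 (SE 0.11, adjusted p = 0.519) and changed sign under other scalings, so no order of the NPC groups was shown. Relative to the AST mean, Pik3cb stood at 0.268, 0.125 and 0.115 in A-iSCs, P56-NPCs and P0-NPCs, and the summed fibroblast and meningeal markers, of whose 6 genes 4 were tested and 4 fell in A-iSCs (29.6% of all genes), at 0.152, 0.025 and 0.228. That sum follows Fn1 and Col1a1, and not every marker went with it. Dcn and Lum, which were under the filter in A-iSCs and ASTs, were higher in both NPC groups than in ASTs. Dcn averaged 0.248 FPKM in ASTs, 1.68 in P56-NPCs and 11.96 in P0-NPCs. Lum averaged 0.037, 0.701 and 7.42 FPKM in the same order. The part of fibroblast and meningeal cells in the Pik3cb level was not tested.

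Pik3ca (ENSMUSG00000027665, chr3:32397671-32468486, plus strand), which encodes the alpha subunit that acts downstream of growth factor receptors, was at 9.36, 8.55 and 9.01 FPKM in ASTs. A-iSCs had 8.49, 8.32 and 11.7 FPKM, P56-NPCs 6.77, 6.62 and 6.63 FPKM, and P0-NPCs 6.85, 7.67 and 7.38 FPKM. A-iSCs overlapped with ASTs, with a log2 fold change of 0.06 (SE 0.14, adjusted p = 0.748) that turned to −0.08 without A-iSC replicate 3, the one high sample. P56-NPCs lay below every AST, with a log2 fold change of −0.38 (SE 0.065, adjusted p = 0.00121). The fall in P0-NPCs, −0.27 (SE 0.081, adjusted p = 0.0162), lost its call when scaled by library size alone (−0.008, adjusted p = 0.937). It changed sign under upper-quartile scaling (0.117, adjusted p = 0.213). Its adjusted p rose to 0.0692, 0.0539 and 0.0664 without AST replicate 1, AST replicate 3 and P0-NPC replicate 1. The higher level in A-iSCs than in P56-NPCs, a log2 fold change of 0.44 (SE 0.14, adjusted p = 0.0265), lost its call without any 1 of the P56-NPC samples (adjusted p of 0.0759 to 0.079). A gene annotated as to be experimentally verified, Gm37123, lies on the same strand within Pik3ca with up to 3.84 FPKM as a group mean, and how the counting split reads between them is not given in the sources used here.

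The catalytic subunits of leukocyte type rose in A-iSCs, and they parted from each other in P0-NPCs. Pik3cd (ENSMUSG00000039936, chr4:149649168-149702571, minus strand) was at 0.543, 0.355 and 0.482 FPKM in ASTs, or 45 to 57 fragments. It was at 5.07, 4.95 and 4.23 FPKM in A-iSCs, at 3.13, 3.14 and 3.19 FPKM in P56-NPCs and at 3.65, 5.31 and 3.68 FPKM in P0-NPCs. All samples of the other 3 groups lay above every AST, and A-iSCs overlapped with P0-NPCs. The log2 fold change against ASTs was 1.98 (SE 0.12, adjusted p = 1.55e-05) in A-iSCs, 1.51 (SE 0.081, adjusted p = 2.42e-06) in P56-NPCs and 1.82 (SE 0.14, adjusted p = 7.74e-06) in P0-NPCs. A-iSCs were not shown to differ from P0-NPCs, with a log2 fold change of 0.15 (SE 0.15, adjusted p = 0.392). P56-NPCs lay below P0-NPCs by a narrow call, −0.31 (SE 0.12, adjusted p = 0.048), which was lost with no filter (adjusted p = 0.104), without any 1 of the P56-NPC samples (adjusted p of 0.0864 to 0.107) and without P0-NPC replicate 2 (−0.17, adjusted p = 0.0627).

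Pik3cg (ENSMUSG00000020573, chr12:32173473-32208659, minus strand), the gamma subunit gene that serves G protein-coupled receptors, had 0.276, 0.252 and 0.403 FPKM in ASTs, or 39 to 63 fragments. Levels were 2.54, 2.21 and 2.67 FPKM in A-iSCs, 1.54, 1.52 and 1.66 FPKM in P56-NPCs and 0.363, 0.379 and 0.302 FPKM in P0-NPCs. The order was A-iSCs, then P56-NPCs, then ASTs and P0-NPCs, which overlapped. The log2 fold change against ASTs was 1.41 (SE 0.12, adjusted p = 6.16e-05) in A-iSCs and 0.97 (SE 0.085, adjusted p = 3.09e-05) in P56-NPCs. A-iSCs were higher than P56-NPCs by 0.43 (SE 0.098, adjusted p = 0.00735). In P0-NPCs and ASTs the gene lay under the filter, and with no filter the log2 fold change was 0.04 (SE 0.065, adjusted p = 0.614).

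**Figure D1:**
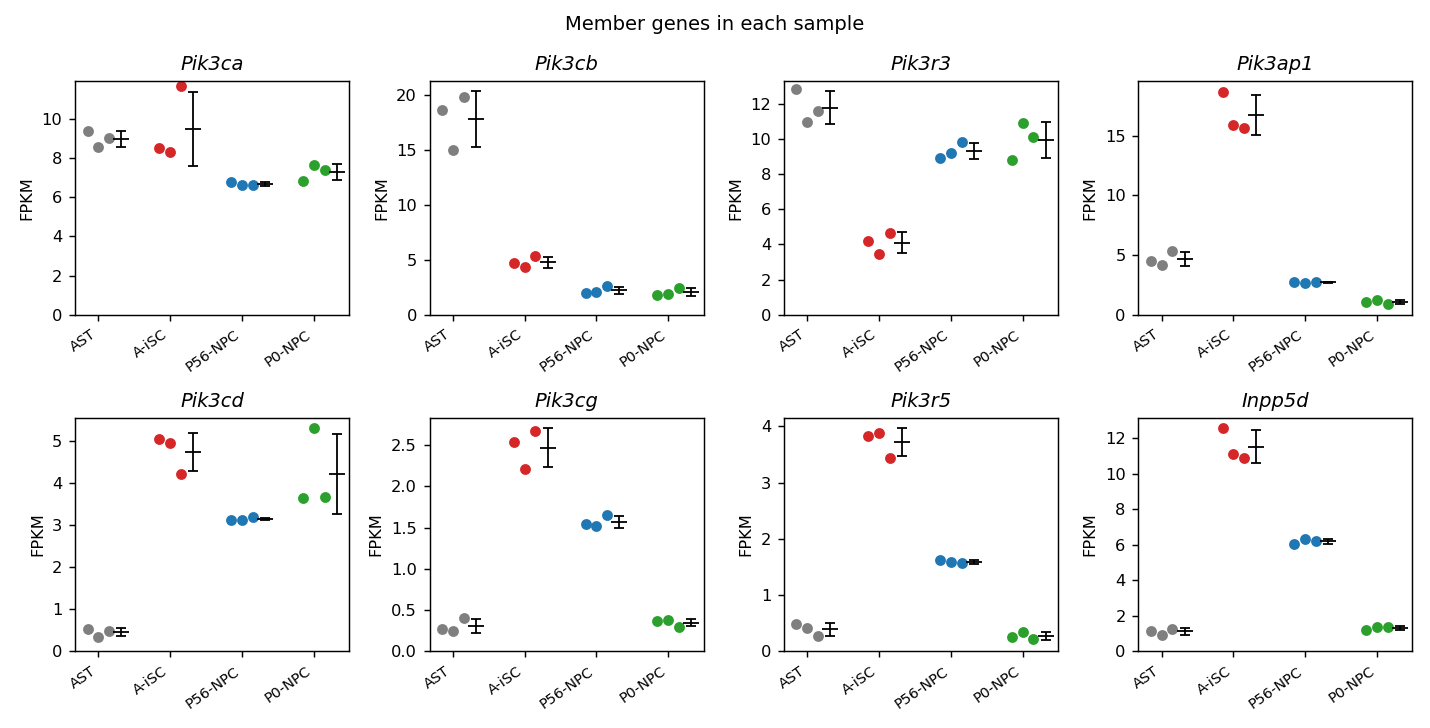
FPKM of each gene (vertical axis, a separate linear scale in each panel) in the 4 groups, with 1 point per sample and the bar beside the points giving the mean ± SD of 3 samples. Pik3cb and Pik3r3 are highest in ASTs, whereas Pik3cd, Pik3cg, Pik3r5, Pik3ap1 and Inpp5d have their highest group mean in A-iSCs, and of these 5 genes Pik3cd alone has a P0-NPC mean near that of A-iSCs.

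Summed over the 4 catalytic genes, class I PI3K messages had a different make-up in ASTs than in the other groups. The sum was 27.5 ± 3.00 FPKM in ASTs, 21.5 ± 2.15 in A-iSCs, 13.6 ± 0.375 in P56-NPCs and 13.9 ± 1.28 in P0-NPCs (mean ± SD, n = 3 each). Pik3cb made up 64.5% of it in ASTs and 22.2%, 16.4% and 14.8% in the other groups in that order, while Pik3ca made up 32.8%, 43.9%, 49.0% and 52.6%. Pik3cd and Pik3cg together gave 2.78% ± 0.239 in ASTs, 33.9% ± 4.36 in A-iSCs, 34.7% ± 0.153 in P56-NPCs and 32.6% ± 4.39 in P0-NPCs. The 3 latter groups overlapped in this joint share. In its parts A-iSCs and P56-NPCs overlapped while P0-NPCs stood apart: Pik3cg was 11.5% of the sum in A-iSCs and in P56-NPCs and 2.51% in P0-NPCs, where Pik3cd was 30.1%. These shares are a description, with no test.

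**Figure D2:**
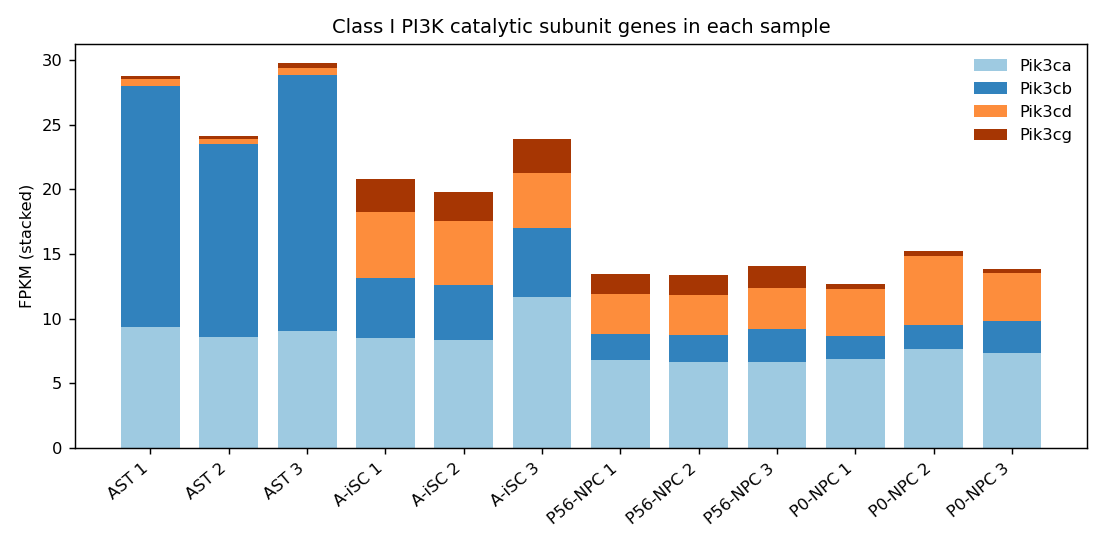
Stacked FPKM of the 4 class I catalytic subunit genes (vertical axis) in each of the 12 samples (horizontal axis), with blue for Pik3ca and Pik3cb and orange for Pik3cd and Pik3cg. Pik3cb fills most of each AST bar, and the orange part is 2.78% of the bar in ASTs on average and 32.6% to 34.7% in the other groups.

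The regulatory subunits moved in opposite directions in A-iSCs. Pik3r3 (ENSMUSG00000028698, chr4:116221618-116303056, plus strand), a regulatory subunit that pairs with the alpha, beta and delta subunits, was at 12.8, 10.96 and 11.6 FPKM in the AST samples, and at 4.203, 3.44 and 4.62 FPKM in the A-iSC samples. It was at 8.92, 9.19 and 9.79 FPKM in P56-NPCs and at 8.82, 10.9 and 10.1 FPKM in P0-NPCs. A-iSCs lay below every other sample, and the NPC groups overlapped. Against A-iSCs, all 3 other groups were higher: the log2 fold change of A-iSCs was −1.33 (SE 0.13, adjusted p = 0.000132) against ASTs, −1.02 (SE 0.11, adjusted p = 0.000231) against P56-NPCs and −1.11 (SE 0.13, adjusted p = 0.000189) against P0-NPCs. The difference of P56-NPCs from ASTs, −0.31 (SE 0.080, adjusted p = 0.00906), lost its call under upper-quartile scaling (−0.15, adjusted p = 0.111), and that of P0-NPCs from ASTs, −0.23 (SE 0.10, adjusted p = 0.0712), was not called. It changed sign with scaling, and it was called without AST replicate 2 (−0.27, adjusted p = 0.038) or P0-NPC replicate 2 (−0.29, adjusted p = 0.0462). A further protein-coding annotation on the same strand, Gm49337, overlaps Pik3r3 and was listed at 0 in all groups.

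Pik3r5 (ENSMUSG00000020901, chr11:68432121-68497849, plus strand), which encodes the partner of the gamma subunit, was at 0.494, 0.409 and 0.272 FPKM in ASTs, or 28 to 46 fragments. It was at 3.84, 3.89 and 3.44 FPKM in A-iSCs, at 1.63, 1.58 and 1.56 FPKM in P56-NPCs and at 0.260, 0.353 and 0.222 FPKM in P0-NPCs. A-iSCs stood above P56-NPCs, and these above ASTs and P0-NPCs, which overlapped, the same order as for Pik3cg. The log2 fold change against ASTs was 1.76 (SE 0.12, adjusted p = 2.3e-05) in A-iSCs and 0.90 (SE 0.090, adjusted p = 6.31e-05) in P56-NPCs, and A-iSCs were 0.86 (SE 0.091, adjusted p = 0.000172) above P56-NPCs. P0-NPCs and ASTs were under the filter, with −0.12 (SE 0.080, adjusted p = 0.279) when no filter was used.

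Pik3ap1 (ENSMUSG00000025017, chr19:41272377-41385102, minus strand), the adaptor BCAP that links B cell and Toll-like receptors to PI3K, gave the widest differences between A-iSCs and NPCs among the 8 genes. It was at 4.51, 4.14 and 5.32 FPKM in the AST samples and at 18.7, 15.9 and 15.6 FPKM in A-iSCs. P56-NPCs had 2.74, 2.66 and 2.77 FPKM and P0-NPCs 1.05, 1.26 and 0.893 FPKM. No groups overlapped, and the order was A-iSCs, ASTs, P56-NPCs and P0-NPCs. The log2 fold change of A-iSCs was 1.65 (SE 0.13, adjusted p = 4.81e-05) against ASTs, 2.25 (SE 0.10, adjusted p = 2.96e-06) against P56-NPCs and 3.10 (SE 0.12, adjusted p = 8.53e-07) against P0-NPCs. Alone among the leukocyte-type genes it was lower in P56-NPCs than in ASTs, by −0.60 (SE 0.092, adjusted p = 0.00066), and the difference between P56-NPCs and P0-NPCs was 0.85 (SE 0.090, adjusted p = 6.84e-05).

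Inpp5d (ENSMUSG00000026288, chr1:87620312-87720507, plus strand) had the largest log2 fold change of the 8 genes in A-iSCs against ASTs on the log2(FPKM + 1) scale, whereas without that pseudocount, in limma-voom, Pik3cd (3.385) and Inpp5d (3.369) were close. Its levels were 1.17, 0.928 and 1.27 FPKM in the AST samples, 12.6, 11.1 and 10.9 FPKM in A-iSCs, 6.03, 6.33 and 6.23 FPKM in P56-NPCs and 1.18, 1.39 and 1.39 FPKM in P0-NPCs. A-iSCs stood above P56-NPCs, and both above ASTs and P0-NPCs, which overlapped. The log2 fold change against ASTs was 2.56 (SE 0.12, adjusted p = 6.55e-06) in A-iSCs and 1.76 (SE 0.084, adjusted p = 1.38e-06) in P56-NPCs. In P0-NPCs it was 0.13 (SE 0.10, adjusted p = 0.265), which was called under scaling by library size alone (0.30, adjusted p = 0.0338) and under upper-quartile scaling (0.37, adjusted p = 0.009). A-iSCs exceeded P56-NPCs by 0.80 (SE 0.093, adjusted p = 0.000294).

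Counted together, 5 of the 8 genes rose and 2 fell in A-iSCs relative to ASTs, where 25.2% and 29.6% of the 14087 genes tested were called in each direction. Against ASTs, 4 of 8 genes were higher and 4 lower in P56-NPCs (39.1% and 39.8% of all genes), and 1 was higher and 3 lower of the 6 tested in P0-NPCs (38.1% and 40.9%). A-iSCs had 7 of 8 genes higher and 1 lower than P56-NPCs (30.1% and 30.9% of all genes), and 5 higher and 1 lower than P0-NPCs (31.5% and 33.6%). P56-NPCs had 4 of 8 genes higher and 1 lower than P0-NPCs (39.7% and 39% of all genes). The median log2 fold change of the 8 genes in A-iSCs over ASTs was 1.53, beside −0.06 for all genes. These counts and this median are no support for a pattern, because some genes passed the filter only through the group where they were high and so had to differ. This was so for Pik3cd, Pik3cg and Pik3r5 in A-iSCs and in P56-NPCs against ASTs, for Pik3cd in P0-NPCs against ASTs, and for Pik3cg and Pik3r5 in A-iSCs and in P56-NPCs against P0-NPCs. Comparisons with ASTs share the AST samples, and those with A-iSCs the A-iSC samples.

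**Figure D3:**
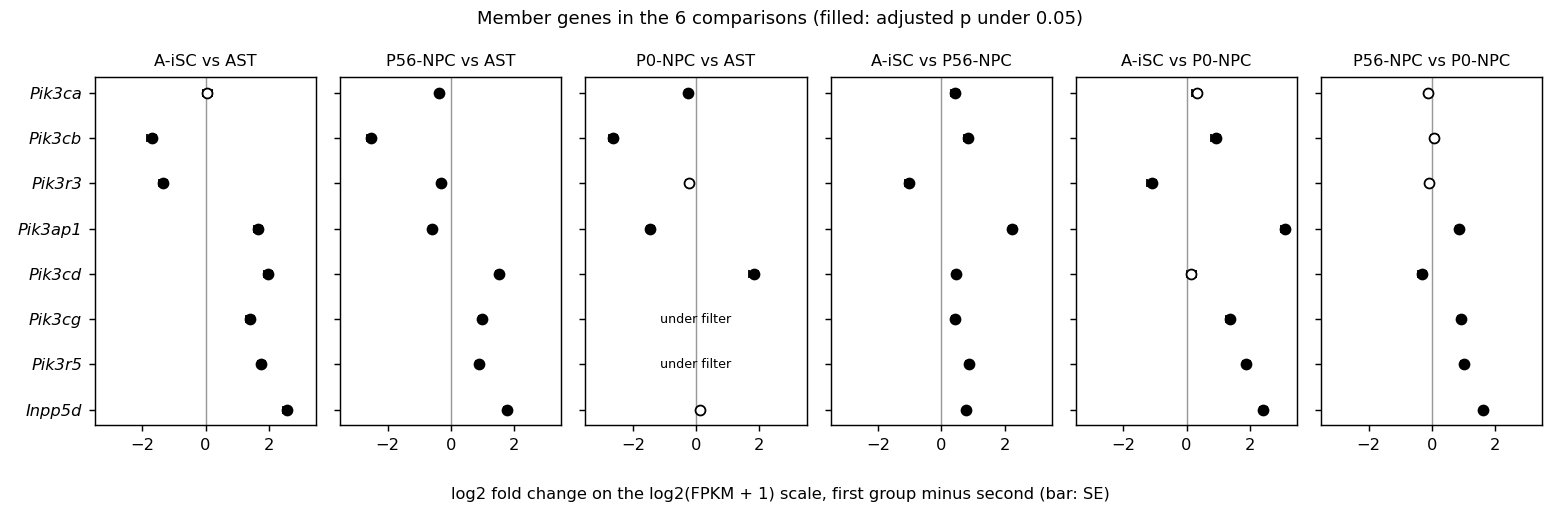
Log2 fold change of each gene on the log2(FPKM + 1) scale (horizontal axis, first group minus second, bars giving the SE) in the 6 comparisons, with filled points for an adjusted p under 0.05 and open points for others. Pik3cg and Pik3r5 lay under the filter in P0-NPCs against ASTs, and Inpp5d, at 2.56, has the largest shift in A-iSCs against ASTs on this scale.

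Several marker lists differed between the groups as well. Of 10 microglia markers, 8 of the 9 tested rose from ASTs to A-iSCs (25.2% of all genes), among them P2ry12, which passed the filter only through A-iSCs and had to rise. Their summed level was 68.9 to 90.2 FPKM in ASTs, 438 to 508 in A-iSCs, 491 to 514 in P56-NPCs and 55.99 to 70.4 in P0-NPCs. None of the 10 was at 0 in any group, but Siglech, a microglial lectin, averaged 0.0059 FPKM in the AST and 0.0391 FPKM in the A-iSC samples against 18.5 FPKM in P56-NPCs. Of 10 pan-leukocyte markers, 10 were higher in A-iSCs than in AST samples, where Ptprc lay under the filter and so had to be, with sums of 97.8 to 139 FPKM in ASTs, 807 to 1370 in A-iSCs, 164 to 177 in P56-NPCs and 66.0 to 86.5 in P0-NPCs. They include Spi1, whose mean rose from 4.30 ± 0.956 to 40.3 ± 15.9 FPKM (SD, n = 3) in A-iSCs. In the same contrast 2 of 6 border macrophage markers were tested and both were higher (sums of 5.09 to 8.49 FPKM in ASTs, 49.7 to 70.2 in A-iSCs, 2.16 to 5.22 in P56-NPCs and 39.1 to 46.8 in P0-NPCs). The A-iSC sum came almost wholly from Pf4 and Ms4a7, with the other 4 markers under 1 FPKM there and at 1.65 to 8.13 FPKM in P0-NPCs. Lymphocyte markers summed to at most 3.79 FPKM in any sample, with Cd3e and Nkg7 at 0 in A-iSCs and Cd3g and Nkg7 at 0 in P0-NPCs. Neutrophil and monocyte markers summed to at most 0.723 FPKM in ASTs and A-iSCs, where S100a9, Ly6g and Elane were at 0, and to 6.07 to 15.7 FPKM in the NPC groups. Other lists also rose in A-iSCs against ASTs, with 7 of 8 astrocyte, 4 of 6 tested oligodendrocyte lineage (1 lower) and 4 of 5 ependymal markers higher. In the last 2 of these lists only 2 markers each reached 1 FPKM in ASTs, so several passed the filter through A-iSCs alone and had to be higher. Relative to the AST mean, the summed level in A-iSCs was 11.1 for astrocyte, 9.41 for pan-leukocyte, 5.97 for microglia, 1.44 for oligodendrocyte lineage and 1.23 for ependymal markers. The part of these cells in the changes of the PI3K genes was not tested.

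Set against the microglia markers, the leukocyte-type genes did not all keep 1 ratio. Relative to the AST mean, the summed microglia markers stood at 5.97 in A-iSCs, 6.26 in P56-NPCs and 0.798 in P0-NPCs. Pik3cg stood at 7.96, 5.06 and 1.12, Pik3r5 at 9.50, 4.07 and 0.711, and Inpp5d at 10.2, 5.51 and 1.18 in the same order. Pik3cd stood at 10.3, 6.86 and 9.16, so that in P0-NPCs it parted from those 3 genes and from the markers. As a share of the summed microglia markers, Pik3cd was 0.573% in ASTs, 1.001% in A-iSCs, 0.629% in P56-NPCs and 6.56% in P0-NPCs. Over the pan-leukocyte markers it was 0.42%, 0.454%, 1.86% and 5.40% in the same order, so P0-NPCs were highest over either list, while the order of A-iSCs and P56-NPCs turned with the list, as it did for Pik3cg, Pik3r5 and Inpp5d. The summed level of 8 neuron markers was 860 to 1037 FPKM in P0-NPCs. It was 88.2 to 124 FPKM in ASTs, 52.1 to 67.7 in A-iSCs and 201 to 246 in P56-NPCs. Stmn2 and Tubb3 made up most of the AST sum (means of 53.8 and 40.7 FPKM). They were at 7.16 and 37.8 FPKM in A-iSCs, so the lower sum there came mostly from Stmn2. In P0-NPCs, relative to the AST mean, neuron markers stood at 9.07 and border macrophage markers at 6.63. Endothelial markers stood at 12.9 there, and neutrophil and monocyte markers at 26.1. The part of any of these lists in the Pik3cd level was not tested. Pik3ap1 went the other way, from 5.82% of the summed microglia markers in ASTs to 3.51%, 0.543% and 1.68% in the other groups. Over the pan-leukocyte markers it was 4.18% in ASTs and nearly level at 1.60%, 1.60% and 1.38% in the others, so P56-NPCs were below ASTs over either list, but below A-iSCs and P0-NPCs over the microglia list alone.

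**Figure D4:**
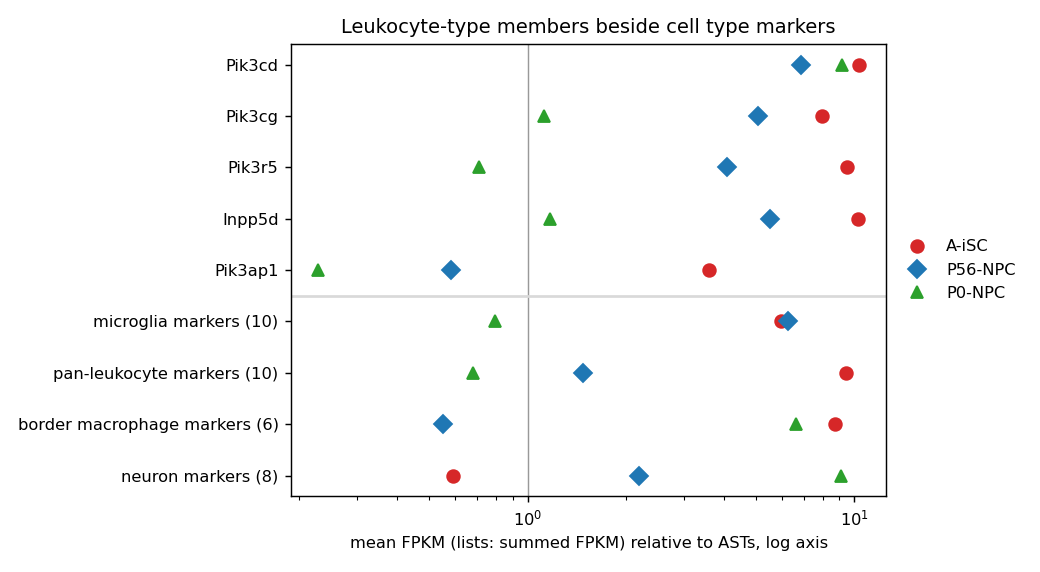
Mean FPKM of the 5 leukocyte-type genes (upper rows) and of 4 marker lists (lower rows, summed over the number of genes in brackets) divided by the AST mean, on a log axis, with 1 symbol for each of the other groups. Pik3cd in P0-NPCs, at 9.16, lies apart from Pik3cg, Pik3r5 and Inpp5d at 0.711 to 1.18, and Pik3ap1 in P56-NPCs, at 0.585, apart from the microglia markers at 6.26.

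In the rest of the pathway, signaling genes around PI3K in myeloid cells, not all of them activators, rose in A-iSCs. Of 18 such genes, 17 were tested against ASTs and 17 were higher (25.2% of all genes), but 7 of these passed the filter only through A-iSCs and had to be higher. The median log2 fold change of the 17 was 2.13, beside −0.06 for all genes, but it takes in these 7 and so supports no direction. The list shares Csf1r, P2ry12, Cx3cr1, Itgam, Tyrobp and Fcer1g with the marker lists. The kinase gene Syk went from 1.16 to 6.00 FPKM (log2 fold change 1.70, adjusted p = 2.61e-05). Btk, another kinase gene, went from 0.635 to 6.19 FPKM (2.13, adjusted p = 3.28e-05), but the filter fixed its direction. Vav1, an exchange factor that acts beside PI3K, went from 2.15 to 19.1 FPKM (2.67, adjusted p = 1.24e-05). In P56-NPCs 9 of 15 tested were higher and 2 lower than in ASTs (39.1% and 39.8% of all genes), and in P0-NPCs 4 of 13 were higher and 9 lower (38.1% and 40.9%). These counts too hold genes that passed the filter through 1 of the groups alone, among them P2ry12, Dok3 and Sla in both contrasts and Btk and Blnk in P56-NPCs, so they support no direction.

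Of the remaining PI3K subunits, Pik3r1, the most widely used regulatory subunit, was level between ASTs (6.92 ± 0.453 FPKM) and A-iSCs (7.04 ± 1.68) and higher in P56-NPCs (22.2 ± 0.502) and P0-NPCs (18.6 ± 0.676; SD, n = 3 each), with log2 fold changes of 1.55 (adjusted p = 1.09e-06) and 1.31 (adjusted p = 2.56e-06). Pik3r6, the other partner of the gamma subunit, rose from 0.164 to 1.21 FPKM in A-iSCs (0.91, adjusted p = 0.00205). Pik3c2b, a class II kinase, went from 0.195 FPKM in ASTs to 5.80 in P56-NPCs (2.51, adjusted p = 3.01e-07) and 5.15 in P0-NPCs (2.36, adjusted p = 3.37e-07). Both Pik3r6 and Pik3c2b were under 1 FPKM in ASTs and passed the filter only through the groups where they were high, so the direction of these tests was fixed. Of 5 class II and III genes, 3 were tested in A-iSCs against ASTs and 2 were higher, and of 8 adaptors and inhibitors 6 were tested, 3 higher and 1 lower (25.2% and 29.6% of all genes). Of 4 class II and III genes tested against ASTs, among them Pik3c2b, 2 were higher in P56-NPCs (39.1% of all genes), and 1 was higher and 1 lower in P0-NPCs (38.1% and 40.9%), near the shares of all genes. The lower adaptor was Irs2, an insulin receptor substrate, from 21.9 to 13.8 FPKM (−0.63, adjusted p = 0.00149).

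Of 12 genes for Akt and its nearest kinases and regulators, 1 rose, 1 fell and 10 were not called in A-iSCs against ASTs, where 25.2% and 29.6% of all genes were called. In P56-NPCs 8 of the 12 were higher and 2 lower than in ASTs (39.1% and 39.8% of all genes), and in P0-NPCs 5 were higher and 2 lower (38.1% and 40.9%). Of 18 phosphatase genes that act on inositol lipids or inositol phosphates, among them Inpp5d, 16 were tested in A-iSCs against ASTs, with 7 higher and 4 lower (25.2% and 29.6% of all genes) and a median log2 fold change of 0.29. Inppl1, the SHIP gene of most tissues, went from 17.1 to 21.2 FPKM in A-iSCs (0.29, adjusted p = 0.0478), much less than Inpp5d, and to 8.87 FPKM in P0-NPCs (−0.87, adjusted p = 1.35e-05). Inpp5a, which acts on soluble inositol phosphates, went from 12.3 to 7.27 FPKM in A-iSCs (−0.69, adjusted p = 0.00121). Synj1, a synaptic lipid phosphatase, went from 3.08 to 6.96 FPKM (0.97, adjusted p = 0.000195).

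The genes whose profiles were most like each of the 8 were found over the 12 samples as the smallest root mean square difference of centred log2(FPKM + 1), among 13652 genes. For Pik3cg they were Cerk (0.089), Map3k5 (0.102) and Abi3 (0.103), beside a spread of 0.607 of Pik3cg itself. For Pik3r5 they were Tbxas1, Ccdc88b and Nfam1 (0.107 to 0.146, own spread 0.764), and for Pik3ap1 Rab7b, Tlr2 and Slc37a2 (0.105 to 0.165, own spread 1.138). Among those of Inpp5d were Cd83 and Olfml3 (0.184 and 0.19, own spread 1.089), and Pik3cd lay nearest to Fcgrt, Htra3 and Plxnc1 (0.155 to 0.209, own spread 0.794). Of the ubiquitous or neural genes, Pik3cb had Snx7 and Lima1 among its nearest (0.17 and 0.18, own spread 1.061). Pik3r3 lay nearest to Ablim1, Ripor2 and Gnb1 (0.157 to 0.187, own spread 0.523) and Pik3ca to Cacul1, Nipbl and Zfp324 (0.067 to 0.075, own spread 0.212).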

How the data were processed

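RNA-seq of 12 samples was used, 3 in each of 4 groups, as a single table that the authors deposited as FPKM (fragment counts divided by gene length and by library size) beside the length and position of each gene. The unit was read from the values: multiplied by gene length they were whole multiples of 1 step per sample (within 0.02), which gave the fragments back for 100.0% of values above 0. The library size behind the FPKM was 0.744 to 1.218 times the recovered fragments, so the deposited values hold a scaling between samples. The submitters' processing notes name Bowtie 0.12.2 and mm8, whereas 54899 of 55154 shared gene identifiers, and all 8 genes described, have GENCODE M21 positions, so GRCm38 is given here.

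limma 3.58.1 in R 4.3.3 (lmFit, eBayes with a trend) was run on log2(FPKM + 1) for 2 groups at a time, in 6 comparisons, over genes whose mean reached 1 FPKM in either group, with Benjamini-Hochberg adjustment over all of them. The method was tested on simulated data. DESeq2, which the study's methods name, was not run. The alternatives were other scalings, no filter, a pseudocount of 0.1, a replicate block, all 4 groups in 1 fit, limma-voom on recovered fragments and leaving out each sample.

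Genes named were the 8 genes, genes of the pathway and marker lists, and the 3 genes nearest each of the 8. The 8 genes and the lists were chosen with earlier results of these data known. A few genes that these rules name are not reported in this text. Promoter sequences are from RefSeq.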

Additional observations from a re-analysis of the deposited data

How the results depend on the processing

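Of 46 tests of the 8 genes, 38 passed the threshold and 34 of these held under all 13 alternatives. The 4 that did not were Pik3ca in P0-NPCs against ASTs and in A-iSCs against P56-NPCs, Pik3cd in P56-NPCs against P0-NPCs and Pik3r3 in P56-NPCs against ASTs. Under upper-quartile scaling the log2 fold change of P0-NPCs against ASTs turned to 0.117 for Pik3ca and 0.167 for Pik3r3, that of Pik3cd in A-iSCs against P0-NPCs to −0.031, and that of Pik3cb in P56-NPCs against P0-NPCs to −0.093. With library size alone it turned to 0.039 for Pik3r3 in P0-NPCs against ASTs and to −0.34 for Pik3cb in P56-NPCs against P0-NPCs, where 8 of the 8 genes were then called in place of 5. Without A-iSC replicate 3, Pik3ca in A-iSCs against ASTs turned to −0.084, and leaving out single samples gave −0.084 to 0.138. The joint share of Pik3cd and Pik3cg was 2.537% in ASTs, 29.817% in A-iSCs, 30.053% in P56-NPCs and 26.393% in P0-NPCs when taken over fragments, which weight long genes more.

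The scalings also moved the higher and lower calls over all genes. Library size alone changed them from 3550 and 4165 to 4563 and 2989 in A-iSCs against ASTs, from 5924 and 6032 to 4569 and 7559 in P56-NPCs against ASTs, from 5713 and 6146 to 7106 and 4860 in P0-NPCs against ASTs, from 4532 and 4643 to 8329 and 2857 in A-iSCs against P56-NPCs, and from 6115 and 6011 to 3438 and 9428 in P56-NPCs against P0-NPCs. Upper-quartile scaling gave 4373 and 2936 in A-iSCs against ASTs, 7673 and 4219 in P0-NPCs against ASTs, 4928 and 7538 in P56-NPCs against P0-NPCs, and 3822 and 6467 in place of 4773 and 5103 in A-iSCs against P0-NPCs. The median log2 fold change of all genes lay between −0.53 and 0.49 under library size alone.

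Same-numbered samples did not deviate together in every pair of groups (correlations of −0.38 to 0.43), so the numbers were not taken to pair the samples. With the replicate block, 3694 genes were called higher and 4250 lower in A-iSCs than in ASTs, and no call of the 8 genes changed. limma-voom on the recovered fragments called 3484 higher and 4160 lower there, beside 3550 and 4165.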
